A study of Mus musculus with 4 samples.

Results

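Genes of voltage-gated ion channels and of connexins were compared across the dorsoventral axis of the tracheoesophageal anlage in BALB/c embryos (mouse, E9.75). The members were all genes whose single symbol in the platform annotation names a subunit of a potassium (Kcn), sodium (Scn), calcium (Cacn) or HCN channel or a connexin (Gj). There were 131 such genes, read by 269 probe sets, among 18194 genes with a probe set of a single symbol. The symbols take in more than voltage-gated pores. They also cover inward rectifiers, tandem pore channels, calcium-activated channels and auxiliary subunits, and the classes are described separately for that reason.

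The anlage is the undivided foregut tube from the end of the pharynx to the lung bud swelling, and it was cut by hand under the microscope, so that each sample holds all tissues of that piece. Each part was measured on 2 Affymetrix arrays that the labels call biological replicates, with no treatment and no genetic change named in the labels. Whether they came from separate litters is not stated, so each p-value rests on the spread of these samples alone, which may be technical. In such pieces, fewer cells of a type and less RNA per cell cannot be told apart.

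Ion channels set the membrane potential and shape the action potentials of heart muscle, neurons and smooth muscle. Voltage-gated channels open when the membrane is depolarised. Sodium and calcium channels carry the inward current, potassium channels return the membrane to rest, and HCN channels carry the pacemaker current. Auxiliary subunits do not form the pore but control its transport to the membrane and its gating. Connexins assemble into gap junctions, through which current and small molecules pass from cell to cell, and the beating of the early heart tube rests on both groups of proteins.

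The values are RMA values on the log2 scale, read as log2 from their range, and a difference is dorsal minus ventral unless stated otherwise. Each gene is represented by its probe set with the highest mean. It entered the limma test when this probe set was brighter than the 40th percentile on 2 or more arrays, and a gene passed at an adjusted p under 0.05 over all 13139 genes tested. Of the 131 members, 72 were tested. Of the other 59, 51 did not exceed the 40th percentile on any array and 8 did so on 1 array. No member can be called absent from this, since no detection calls were used and probe sets differ in brightness, and for the same reason no gene's level is ranked against another's. The arrays were alike in scale apart from ventral replicate 2, whose 25th percentile was 4.04 where the other 3 arrays had 3.89 to 3.90. The poly-A control probe sets had means of 7.58 and 7.82 on the arrays numbered 1 and 9.76 and 9.66 on those numbered 2.

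Of the 72 tested members, 6 were higher ventrally and 4 dorsally. The share higher ventrally was 8.33% against 4.09% of all genes tested, and the share higher dorsally was 5.56% against 4.79%. With quantile normalization once more the split was 9 ventral and 3 dorsal (12.5% and 4.17%, against 4.83% and 3.65% of all genes). Without ventral replicate 1 it was 24 and 10, or 35.8% and 14.9% of the members tested, where 12.3% and 35.1% of all genes passed ventrally and dorsally. Without ventral replicate 2 it was 8 and 3 (11.6% and 4.35%, against 6.21% and 4.78% of all genes). Without dorsal replicate 1 it was 5 and 1 (7.04% and 1.41%, against 2.15% and 1.90%), and without dorsal replicate 2 it was 4 and 1 (5.80% and 1.45%, against 2.13% and 1.94%). The genes higher ventrally were *Cacna2d2*, *Scn7a*, *Kcnq3*, *Kcnmb1*, *Kcne3* and *Kcnj16*, and those higher dorsally were *Gja4*, *Kcnk16*, *Cacna2d1* and *Kcnk5*. At an unadjusted p under 0.05 there were 15 ventral and 6 dorsal members of 72, beside 7.98% and 11% of all genes tested. *Scn7a* and *Kcnmb1* entered the test through the ventral arrays alone, so a ventral lean was built into their selection. *Kcnn3* (-0.50) entered in the same way and *Gjb2* (0.30) through the dorsal arrays alone, and neither passed. Among the 68 members above the 40th percentile in both parts, 4 were higher ventrally and 4 dorsally (5.88% each), beside 3.62% and 4.42% of all such genes.

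**Figure D1:**
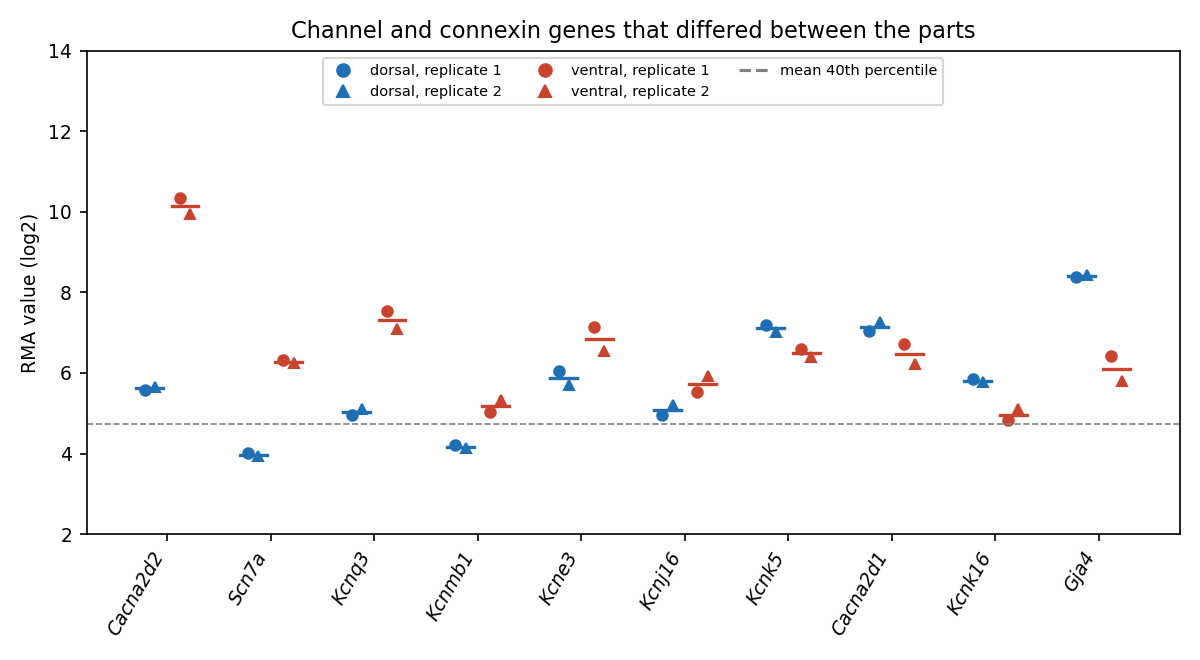
RMA values (log2, vertical axis) of the 10 members that passed the test, ordered by their difference, with 1 point per array, a bar at the mean of the 2 arrays of a part and a dashed line at the mean 40th percentile of the arrays. *Cacna2d2* lies near 5.6 dorsally and near 10 ventrally, *Gja4* lies near 8.4 dorsally and near 6 ventrally, and no gene has overlapping parts.

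The promoters of the members with the largest differences are shown because these genes carry the dorsoventral contrast. The sequences are RefSeq promoter windows of GRCm38.p6, from 250 bases before to 50 after the annotated start, 5′ to 3′ on the strand of the gene, and the arrays do not measure them. The window of *Cacna2d2* is chr9:107399630-107399929 on the plus strand, that of *Scn7a* is chr2:66784861-66785160 on the minus strand and that of *Gja4* is chr4:127313990-127314289 on the minus strand. *Kcnq3* is named only. Capitals mark matches on either strand to 3 cores bound by factors that act in the heart, among other tissues, namely AGATAA of GATA factors, AGGTGT of T-box factors and AAGTG of NKX factors. No letters of these cores are shared between matches, since there is 1 match in all.

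Cacna2d2: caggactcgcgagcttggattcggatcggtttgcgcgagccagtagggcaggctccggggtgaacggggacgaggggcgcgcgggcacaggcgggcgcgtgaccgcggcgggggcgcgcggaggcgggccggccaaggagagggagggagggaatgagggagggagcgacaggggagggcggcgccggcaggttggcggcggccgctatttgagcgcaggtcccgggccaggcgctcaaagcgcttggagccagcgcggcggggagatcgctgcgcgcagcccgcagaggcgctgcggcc
Scn7a: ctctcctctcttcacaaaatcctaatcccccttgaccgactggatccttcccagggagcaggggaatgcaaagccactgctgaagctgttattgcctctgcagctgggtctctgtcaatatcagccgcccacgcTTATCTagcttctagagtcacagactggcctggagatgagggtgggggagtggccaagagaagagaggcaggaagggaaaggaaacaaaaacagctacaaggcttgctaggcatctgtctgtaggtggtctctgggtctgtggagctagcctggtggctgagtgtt
Gja4: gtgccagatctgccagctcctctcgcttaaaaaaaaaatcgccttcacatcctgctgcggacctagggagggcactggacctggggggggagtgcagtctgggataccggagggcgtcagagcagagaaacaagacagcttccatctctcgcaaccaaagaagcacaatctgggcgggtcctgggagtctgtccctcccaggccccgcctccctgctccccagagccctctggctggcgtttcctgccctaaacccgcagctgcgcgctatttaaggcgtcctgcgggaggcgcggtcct

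The 3 windows differ in base composition. That of *Cacna2d2* was 75.7% G and C with 43 CpG dinucleotides, that of *Gja4* was 62.0% with 16, and that of *Scn7a* was 54.0% with 3, beside medians of 52.7% and 7 over all 32851 windows of the same length. The window of *Scn7a* held 1 match, the GATA core on the strand opposite to the gene at bases 135 to 140, and the others held none of the 3 cores. Among all windows, 11.2% held the GATA core, 13.7% the T-box core and 46.4% the NKX core. A match is a run of letters and not a binding site, and the absence of one says only that these letters are not in this window.

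*Cacna2d2* encodes an alpha2delta subunit of voltage-gated calcium channels, an extracellular protein that promotes their transport to the membrane. The dorsal arrays read 5.58 and 5.66, and the ventral arrays read 10.35 and 9.94. Both ventral values lay far above both dorsal ones, and the gene was 23.1-fold higher ventrally (difference -4.53 with a standard error of 0.18 over 2 arrays a part, limma adjusted p = 4.03e-14). The replicates numbered 1 differed by -4.77 and the replicates numbered 2 by -4.28. The other 2 probe sets of the gene had differences of -0.19 and 0.01 and lay below the 40th percentile on all arrays, so with the mean of all probe sets the difference was -1.57, which also passed in limma (adjusted p = 4.48e-05, and at most 0.000898 under any of 13 alternatives). The paralogous alpha2delta gene *Cacna2d1* ran the other way, reading 7.04 and 7.27 dorsally but 6.71 and 6.22 ventrally. Its parts did not overlap and were 0.69 apart (standard error 0.19, limma adjusted p = 0.0202). It did not pass without either dorsal array (0.80 and 0.57), without ventral replicate 2 (0.44), without a filter (0.69), with quantile normalization once more (0.61), with the mean of all probe sets (0.34) or with every probe set tested on its own (limma adjusted p = 0.0811). Over all 13 alternatives its difference ran from 0.34 to 0.93. Its 4 other probe sets differed by -0.02 to 0.48, and the one at 0.48 lay below the 40th percentile on all arrays.

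Of 8 tested auxiliary genes of calcium channels *Cacna2d1* and *Cacna2d2* alone passed, and the beta subunit gene *Cacnb2*, which is prominent in heart, had a difference of 0.26. *Cacng7* read 8.82 and 8.59 dorsally and 8.40 and 9.26 ventrally, and the spread between the ventral arrays exceeded the difference of -0.12. None of the 8 tested pore genes passed, with differences from -0.50 to 0.10, although *Cacna1d* passed in several alternatives. Without ventral replicate 1, *Cacna1a* (0.29) and *Cacna1h* (0.34) passed dorsally and *Cacna1b* ventrally. *Cacna1b*, a channel gene of nerve endings, read 5.37 and 5.69 dorsally and 5.80 and 6.10 ventrally, which do not overlap (-0.42, limma adjusted p = 0.194). *Cacna1d*, which encodes an L-type channel of pacemaker cells and endocrine cells, read 5.09 and 5.17 dorsally and 5.50 and 5.76 ventrally, which do not overlap (difference -0.50, 95% interval -0.86 to -0.14, adjusted p = 0.0813 from limma). Its other probe set rose from 4.55 and 4.75 dorsally to 5.65 and 5.88 ventrally, a difference of -1.11 that passed when limma was run on every probe set (adjusted p = 0.00268). With the mean of its probe sets the gene passed at -0.81, as it did with the replicate block (-0.50) and without ventral replicate 1 (-0.63), and its adjusted p in limma ran from 0.00679 to 0.971 over the alternatives. *Cacna1c*, the main L-type channel gene of heart muscle, was at 5.81 and 5.67 dorsally and 5.79 and 5.62 ventrally (difference 0.03, 95% interval -0.32 to 0.39). Its other probe set read 4.67 and 4.87 dorsally and 5.07 and 5.37 ventrally, which do not overlap. That difference of -0.45 did not pass when limma was run on every probe set (adjusted p = 0.233).

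*Scn7a* belongs to the sodium channel family by sequence, but its product senses extracellular sodium rather than voltage. Its values were 4.02 and 3.93 dorsally and 6.31 and 6.24 ventrally, a measured difference of -2.31 (limma adjusted p = 1.10e-09). Neither dorsal value reached the 40th percentile of its array, so the gene passed the filter through the ventral arrays alone and its p is no independent support. Against the mean of those percentiles it was at least 2.93-fold higher ventrally. Of its other probe sets, one differed by -1.45 and exceeded the 40th percentile on 1 array only. The last differed by 0.01 and lay below it on all arrays. *Scn7a* was not tested without either ventral array, because the filter asks for 2 arrays. Nor was it tested with a filter at the 60th percentile or with the mean of its probe sets. The other tested sodium channel genes were the pore gene *Scn8a* (0.15) and the beta subunit gene *Scn2b* (0.17), and neither passed. The 6 pore genes *Scn1a*, *Scn2a*, *Scn3a*, *Scn9a*, *Scn10a* and *Scn11a* and the beta subunit genes *Scn3b* and *Scn4b* were not tested. *Hcn3* was the one tested HCN gene, at 6.60 and 6.48 dorsally and 6.43 and 6.78 ventrally (difference -0.07).

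Among the 17 tested pore genes of voltage-gated potassium channels, *Kcnq3* alone passed. It encodes a subunit of the M-current channel that damps repetitive firing in neurons. Its values were 4.97 and 5.12 dorsally and 7.55 and 7.10 ventrally, so the parts were far apart, and the gene was 4.86-fold higher ventrally (-2.28 with a standard error of 0.18, limma adjusted p = 5.38e-09). The replicates numbered 1 differed by -2.58 and those numbered 2 by -1.98. The other probe set gave -1.22 but exceeded the 40th percentile on 1 array only. Its paralog *Kcnq5* had a difference of -0.49 and did not pass in limma (adjusted p = 0.110, and 0.0160 to 0.937 over its alternatives). Another probe set of *Kcnq5* gave 0.35, and without ventral replicate 1, where that probe set had the highest mean, the difference was 0.53 and passed, so no direction holds for this gene. *Kcns3*, a silent subunit, was at 7.29 and 7.17 dorsally and 7.83 and 7.70 ventrally (difference -0.53, adjusted p = 0.0539 from limma, and 0.0230 to 0.893 over its alternatives), and it passed under 6 of 13 alternatives. *Kcnh2*, which carries the rapid repolarising current of heart muscle, was alike in the parts, at 9.17 and 9.23 dorsally and 9.21 and 9.08 ventrally (difference 0.05, 95% interval -0.30 to 0.40).

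The remaining potassium channel genes that passed had smaller differences. *Kcnmb1*, the beta subunit of the calcium-activated channel of smooth muscle, was at 4.21 and 4.14 dorsally, under the 40th percentile each time, and at 5.04 and 5.33 ventrally (difference -1.01, adjusted p = 0.000252 from limma). It too passed the filter through the ventral arrays alone, so its p is no independent support. Set against those percentiles it was at least 1.37-fold higher ventrally. Its other probe set gave -0.63 and exceeded the 40th percentile on 1 array only. The gene was not tested without either ventral array. *Kcnma1*, the pore of the same channel, had a difference of -0.32 and did not pass. *Kcne3*, an auxiliary subunit that keeps *Kcnq1* channels open in epithelia, read 6.06 and 5.71 dorsally and 7.15 and 6.54 ventrally, with a difference of -0.96 (adjusted p = 0.00197 from limma). This was lost without dorsal replicate 2 (-0.79) and with quantile normalization once more (-1.02), and the adjusted p ran from 1.73e-06 to 0.171. *Kcnj16*, an inward rectifier of transporting epithelia, had 1 other probe set, which lay below the 40th percentile on all arrays and gave 0.06. The gene differed by -0.64 (adjusted p = 0.0289 from limma). It did not pass with every probe set tested on its own (limma adjusted p = 0.0942), without either dorsal array (-0.51 and -0.76), without ventral replicate 2 (-0.43), without a filter (-0.64) or with quantile normalization once more (-0.66), and had an adjusted p from 0.00491 to 0.832.

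Tandem pore channels carry background potassium currents that set the resting potential. Of their 8 tested genes 2 were higher dorsally, beside 4.79% of all genes tested, while the class median was -0.16. *Kcnk16*, known from pancreatic islets, read 5.84 and 5.78 dorsally against 4.82 and 5.11 ventrally (0.84 apart with a standard error of 0.17, limma adjusted p = 0.00176). Its parts did not overlap, yet leaving out either dorsal array (0.82 and 0.87) ended the call, with adjusted p of 4.55e-05 to 0.135 over the alternatives. *Kcnk5*, an acid-sensitive channel of epithelia, was at 7.19 and 7.02 dorsally and 6.59 and 6.39 ventrally (difference 0.62, adjusted p = 0.0238 from limma). The call was lost on leaving out either dorsal array (0.53 and 0.70) or ventral replicate 2 (0.51) with the mean of its probe sets (0.22) and with every probe set tested on its own (limma adjusted p = 0.0655), and the adjusted p reached 0.782. Its other probe set gave -0.18 and lay below the 40th percentile on all arrays. *Kcnk6* (-0.45), *Kcnk2* (-0.48) and *Kcnk1* (-0.18) did not pass. The parts did not overlap for *Kcnk6* and *Kcnk2*, and both passed ventrally with quantile normalization once more. *Kcnk2* also passed with a filter at the 60th percentile.

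Of 14 connexin genes 5 were tested, and *Gja4* alone passed. *Gja4* encodes a connexin of arterial endothelium. Its values were 8.38 and 8.42 dorsally and 6.41 and 5.80 ventrally, so that both dorsal arrays lay well above both ventral ones, and it was 4.91-fold higher dorsally (2.29 with a standard error of 0.19, limma adjusted p = 1.01e-08). The replicates numbered 1 differed by 1.97 and those numbered 2 by 2.62, and the gene passed under all 13 alternatives. The gene has a single probe set here. *Gja1*, the most widely expressed connexin gene, was at 12.63 and 12.74 dorsally and 12.68 and 12.79 ventrally, and the values of the parts interleave (difference -0.05, 95% interval -0.40 to 0.30). *Gjc1*, the connexin gene of the early heart and of vessels, was at 11.40 and 11.31 dorsally and 11.25 and 11.05 ventrally (difference 0.21, 95% interval -0.15 to 0.56). *Gjb2* (0.30) and *Gjb5* (-0.31), connexin genes of epithelia, did not pass either. *Gja5*, the connexin gene of atrial muscle and arteries, had values from 4.31 to 4.48, below the 40th percentile on all 4 arrays, and was not tested.

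**Figure D2:**
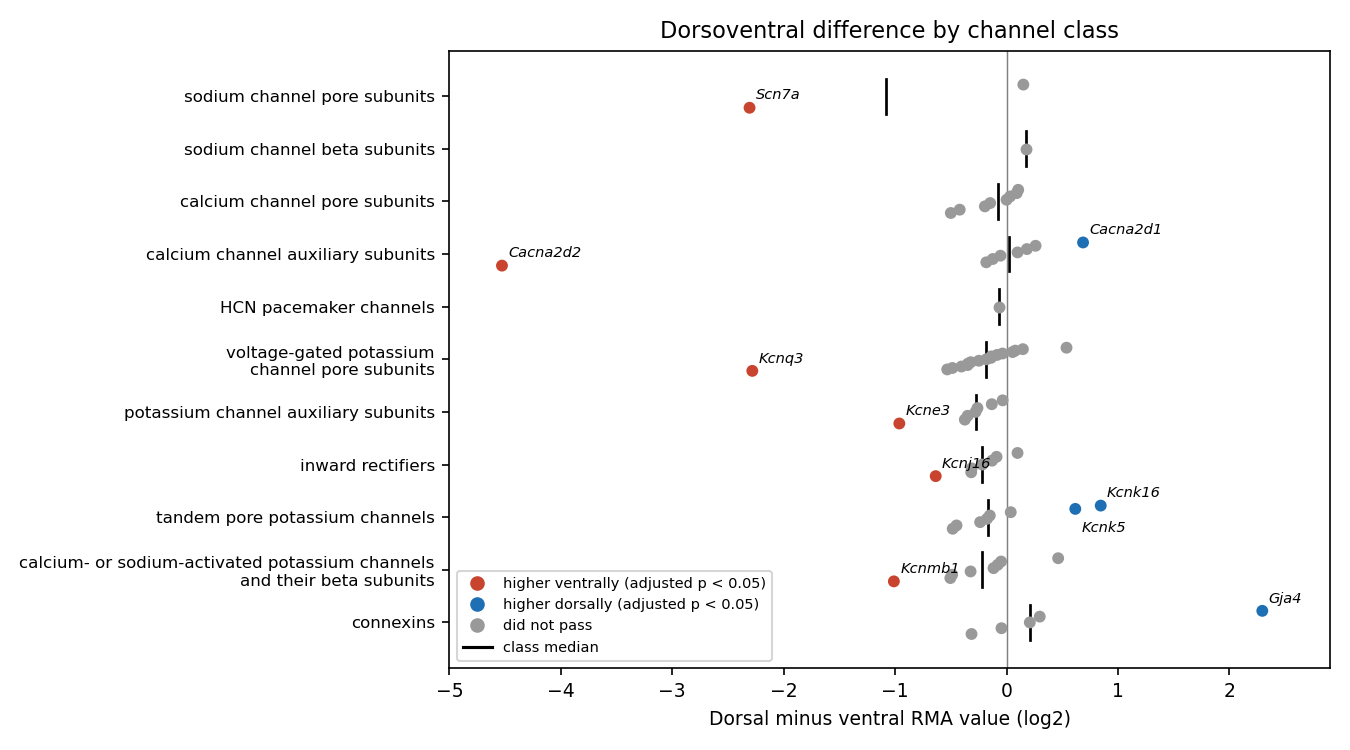
Differences between the parts (dorsal minus ventral, log2, horizontal axis) of the 72 tested members by channel class. Each point is a gene, its colour gives the limma call, and a bar marks the class median. Class medians lie between -1.08 for sodium channel pore subunits, a class with 2 tested genes, and 0.21 for connexins, and most genes lie near 0 with *Cacna2d2*, *Scn7a*, *Kcnq3* and *Gja4* far from it.

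Over all members the values leaned to the ventral part, by an amount that depended on the arrays used. The median difference of the 72 members was -0.14 and 50 of them had negative values, beside a median of 0.07 over all genes tested, of which 38.4% had negative values. Both ventral arrays lay above both dorsal arrays for 25 members (34.7%, against 17.6% of all genes tested), and both dorsal arrays lay above both ventral arrays for 11 members (15.3%, against 33.3%). The lean differed between the arrays. The median of the members was -0.05 between the replicates numbered 1 and -0.28 between the replicates numbered 2, where that of all genes tested was -0.0001 and 0.18. The lean also moved with the level of the probe sets. Among genes with a mean under 6, 72.5% of 40 members and 66.5% of 2610 tested genes had negative differences, and among the rest the shares were 65.6% of 32 members and 31.5% of 10529 genes. Of the settings that left out 1 array, the lean was smallest without ventral replicate 2. Without it the median of the members was -0.03 and that of all genes tested 9.5e-05, and without ventral replicate 1 they were -0.24 and 0.18. With quantile normalization once more, on all arrays, they were -0.20 and -0.02. Ventral replicate 2 had the higher 25th percentile, and the 59 members that were not tested had a median of 4.11 there and of 3.92 to 4.03 on the other arrays.

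By class, voltage-gated potassium channel pores had a median difference of -0.18, their auxiliary subunits one of -0.28, inward rectifiers one of -0.22, tandem pore channels one of -0.16 and calcium- or sodium-activated potassium channels one of -0.22. Calcium channel pores had a median of -0.07 and their auxiliary subunits one of 0.02, beside 0.07 for all genes tested and -0.14 for all tested members. In all 7 tested auxiliary subunits of potassium channels the value was negative, from -0.96 for *Kcne3* to -0.04 for *Kcnip2*, but 6 of the 7 did not pass.

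Because the ventral piece contained heart muscle transcripts, the members that textbook knowledge places in the heart were set beside heart muscle genes. Of 20 heart muscle genes 18 were tested. Of these, 16 were higher ventrally and none dorsally (median difference -3.52), beside 4.09% and 4.79% of all genes tested. *Myl2* and *Nppa* lay below the 40th percentile on all arrays. *Myh6*, *Ldb3* and *Smpx* entered the test through the ventral arrays alone, so their calls are no independent support. The mean level over the 20 genes was 5.48 and 5.49 in the dorsal samples against 8.48 and 8.24 in the ventral ones. *Myh6*, the atrial myosin heavy chain gene, was at 3.87 and 3.93 dorsally, under the 40th percentile each time, and 10.07 and 10.05 ventrally, and *Tnnt2* was at 5.99 and 5.92 dorsally and 11.46 and 11.14 ventrally. Of 12 transcription factor genes of the heart and its conduction system 8 were higher ventrally, among them *Tbx20* (-4.68), *Shox2* (-3.91), which acts in pacemaker cells, *Gata4* (-3.05) and *Nkx2-5* (-2.90), and none was higher dorsally.

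The list of cardiac channel and connexin genes gave other counts. Of the 25 analysed here, 15 were tested, none was higher ventrally and *Cacna2d1* was higher dorsally. Its paralog *Cacna2d2*, higher ventrally, was placed in the neuronal list and not in this one, and the counts depend on that placement. At an unadjusted p under 0.05 there was 1 ventral gene, *Cacna1d*, which passed in some alternatives as described above. The median difference of the 15 was 5e-06, and the mean level over the 25 genes was 5.71 and 5.72 dorsally and 5.74 and 5.75 ventrally. For the 14 that did not pass, the differences ran from -0.50 to 0.26. All 95% intervals lay within 1 of 0, which is 2-fold, and the number of arrays limits this precision. The intervals cover only the chosen probe set of each gene, and the other probe set of *Cacna1d* differed by -1.11. They also include dim probe sets. *Cacna1c*, *Cacna1g*, *Kcnq1*, *Kcnip2* and *Kcnj3* read 4.86 to 5.81, where the 40th percentiles were 4.69 to 4.82. *Cacna1g*, *Cacna1h*, *Kcnq1*, *Kcna5*, *Kcnip2*, *Kcnj3*, *Kcnj11* and *Kcnk3* had differences of -0.15 to 0.09. Without ventral replicate 1, *Cacnb2* (0.62), *Cacna1h* (0.34) and *Gjc1* leaned further dorsally, where the median of all genes was 0.18. *Cacna1d* and *Kcnj3* were among those that leaned further ventrally in that setting. The acetylcholine-regulated channel gene *Kcnj3* read 5.09 and 5.19 dorsally and 4.86 and 5.69 ventrally, so its ventral arrays differed more from each other than the parts did, and it passed ventrally without ventral replicate 1 (-0.54, limma adjusted p = 0.0173, the lowest of its 11 alternatives).

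The 10 cardiac genes with a probe set that were not tested include *Kcnd2*, *Kcnd3*, *Kcnj2*, *Kcnj12*, *Kcna4*, *Kcnj8*, *Hcn2* and *Gja5*, which lay below the 40th percentile on all arrays, and *Kcne1* and *Kcnj5*, which exceeded it on 1 array. *Kcnj5*, the partner subunit of *Kcnj3* in atrial and pacemaker cells, was at 3.66 and 4.22 dorsally and 4.53 and 4.93 ventrally. Its parts did not overlap, and without a filter it was higher ventrally, but only 1 of its 4 values exceeded the 40th percentile, so the size of its difference is not read. The 8 genes below the percentile on all arrays and *Kcne1* are left without a direction.

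**Figure D3:**
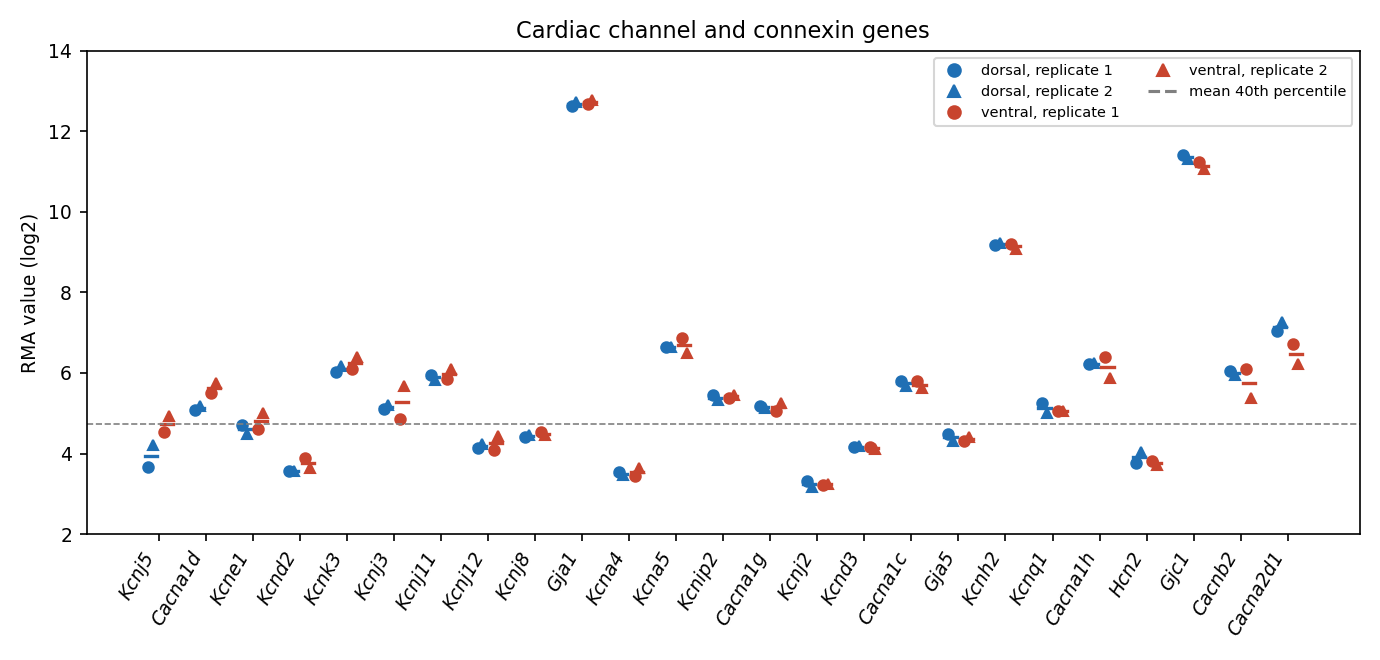
RMA values (log2, vertical axis) of the 25 cardiac channel and connexin genes with a probe set, ordered by their difference, with 1 point per array, a bar at the mean of each part and a dashed line at the mean 40th percentile of the arrays. Dorsal and ventral points lie close together for nearly all genes, and *Cacna2d1*, which is higher dorsally by 0.69, is the one gene that passed. Points under the dashed line are too low to be ordered.

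Partners of these channels that are not channels of the surface membrane gave a mixed picture. Of 13 tested genes of calcium handling and of the junctions and scaffolds that hold channels, 5 were higher ventrally and none dorsally (median -0.38). *Ryr2*, the calcium release channel of the sarcoplasmic reticulum, was at 4.42 and 4.54 dorsally, under the 40th percentile each time, and at 7.82 and 7.42 ventrally, which is at least 7.40-fold higher against that percentile. The gene entered the test through the ventral arrays alone, so its call is no independent support. *Popdc2* (-2.01) and *Bves* (-1.68), membrane proteins that bind cyclic AMP in heart muscle, the exchanger gene *Slc8a1* (-0.81) and *Jph2* (-0.76), which holds the calcium release units at the membrane, were the other 4. *Atp2a2* (-0.23), *Casq2* (-0.38) and *Pln* (-0.38) did not pass, nor did *Tjp1* (0.11), whose product binds connexins. Of 13 tested channel genes outside the members, *Asic1*, an acid-sensing channel, was higher ventrally (-0.98) and none was higher dorsally, and the pannexin gene *Panx1* had a difference of 0.36.

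Members known from other tissues were read against markers of those tissues. Of 16 tested neuronal channel genes 2 were higher ventrally, *Cacna2d2* and *Kcnq3*, and none dorsally (median -0.16). The placement of a gene in a list is textbook knowledge and not a result of these data. Neuronal markers had the opposite direction, with 6 of 8 tested genes higher dorsally and a mean level over 9 genes of 6.66 and 6.71 dorsally and 5.70 and 5.50 ventrally. *Snap25* lay below the 40th percentile on all arrays and *Nefm* was at 9.16 and 9.25 dorsally and 6.07 and 5.67 ventrally. Neural crest and glial markers were also mostly higher dorsally, in 5 of 6 tested genes, with *Ednrb* higher ventrally. *Foxd3* entered the test through the dorsal arrays alone. *Cacna2d2*, *Scn7a* and *Kcnq3* were thus higher in the piece with the heart muscle transcripts and the lower neuronal ones, and the part of either tissue in their values was not tested.

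Of 5 tested vascular channel and connexin genes, *Gja4* was higher dorsally and *Kcnmb1* ventrally. None of 9 endothelial markers passed in limma (median -0.07, range -0.42 to 0.42), and *Kdr* (-0.42) alone had an unadjusted p under 0.05. The mean level of the endothelial list was 8.01 and 7.90 dorsally and 8.11 and 7.72 ventrally, so the parts overlap for the endothelial list and do not overlap for *Gja4*. Of 5 tested red blood cell genes, 3 were higher dorsally, with a mean level of 11.61 and 11.65 dorsally and 11.03 and 10.61 ventrally. For smooth muscle, to which *Kcnmb1* belongs, *Myocd* (-4.52), which heart muscle expresses too, and *Cnn1* (-0.73) were higher ventrally and *Tagln* (2.21) dorsally, and the mean level of the 5 genes was 7.90 and 7.97 dorsally and 8.71 and 8.50 ventrally. Without *Myocd* it turned, to 8.52 and 8.58 dorsally and 8.39 and 8.13 ventrally. Their part in these results was not tested.

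Of 7 tested epithelial channel and connexin genes, *Kcne3* and *Kcnj16* were higher ventrally and *Kcnk5* dorsally (median -0.18). Among 8 epithelial markers *Grhl2* (-0.77), *Esrp1* (-0.56) and *Cldn7* (-0.55) were higher ventrally and none dorsally, with a mean level of 9.32 and 9.28 dorsally and 9.92 and 9.64 ventrally. *Kcne3* and *Kcnj16* moved with this list and *Kcnk5* did not, and the part of the epithelium in them was not tested. Hepatic and mesothelial markers differed as well. Of 5 tested hepatic genes 3 were higher ventrally (median -1.10), and of 5 tested mesothelial genes 4 were higher dorsally and 1 ventrally (median 2.56). The mesothelial gene *Wt1* entered the test through the dorsal arrays alone. Of 2 tested somite and skeletal muscle genes, *Meox1* was higher dorsally (2.01).

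**Figure D4:**
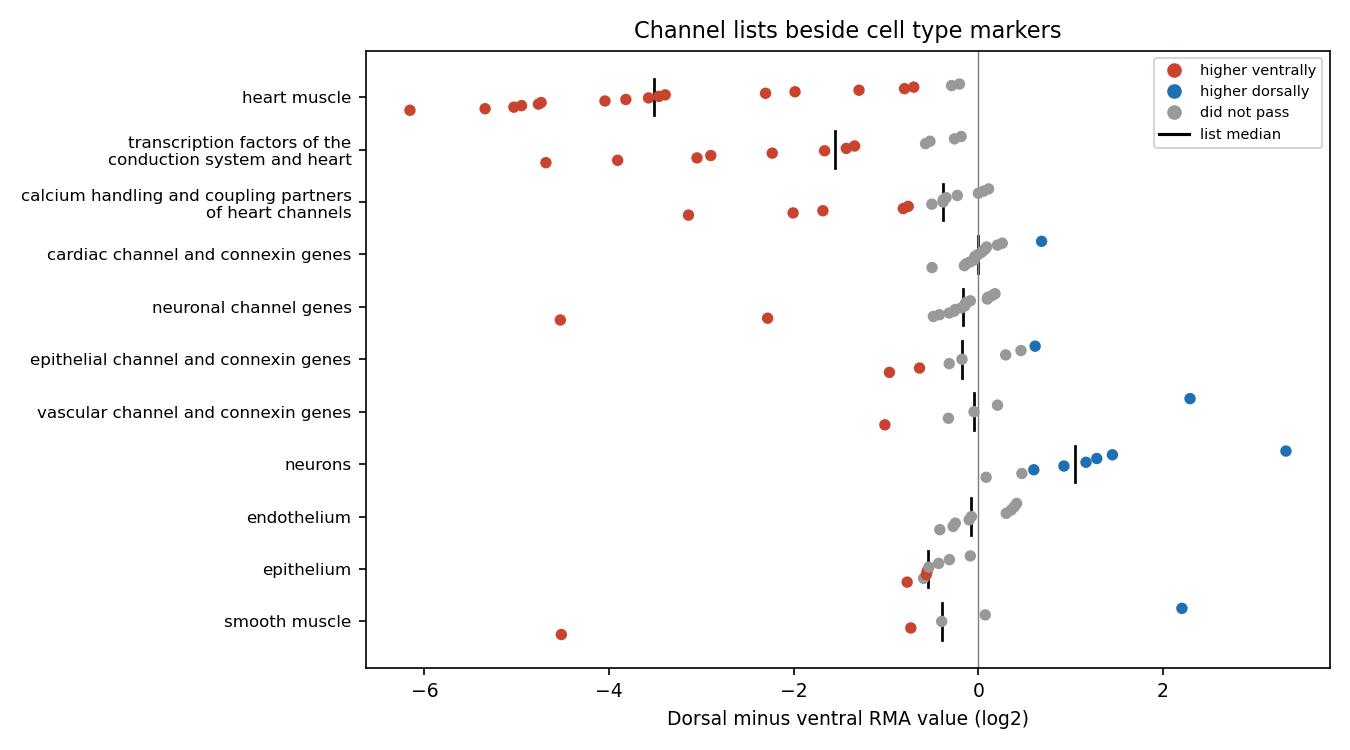
Differences between the parts (dorsal minus ventral, log2, horizontal axis) for the tested genes of lists of channels, markers and partners. Each point is a gene, its colour gives the limma call, and a bar marks the list median. The medians are -3.52 for heart muscle, -1.55 for heart transcription factors and -0.38 for calcium handling partners, while that of cardiac channels and connexins lies at 0, and neuronal markers lie to the right with a median of 1.05.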

How the data were processed

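RNA (100 ng a sample) from dorsal and ventral tissue was hybridised as biotin-labelled cRNA to Affymetrix mouse arrays, 1 sample per array. The authors deposited 1 RMA value per probe set and array, here taken as log2 from its range. The submitters' processing notes name RMA, with software and version not given in the sources used here. RMA usually sets arrays to a common distribution, which hides a shift shared by most genes, but the deposited arrays differ in their percentiles (25th percentile 4.04 on ventral replicate 2 and 3.89 to 3.90 on the others).

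Of 45101 probe sets, 34958 have 1 symbol in the platform annotation, 932 several and 9211 none. All 131 members matched the RefSeq table of GRCm38.p6 through their Entrez number. A gene was represented by its brightest probe set (mean of the 4 arrays), and genes above the 40th percentile on 2 or more arrays were tested with limma 3.58.1 in R 4.3.3 (lmFit and eBayes, dorsal against ventral, Benjamini-Hochberg adjustment over all 13139 genes). With 2 arrays a part, exact permutation gives a two-sided p of 0.333 at best, so it was not used. The procedure was tested on simulated data with 200 changed genes. Precision is limited by the number of arrays.

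Named in the text were all members that passed, the cardiac members, the brightest member of classes, classes with few tested members and up to 4 genes per marker list by size of difference, and any other gene was chosen after its values were seen. The members and lists were chosen with earlier results of these data known. Alternatives were other filters, normalizations, probe set choices, variance settings and thresholds, a replicate block and leaving out each array. Testing every probe set on its own was added after seeing the data.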

Additional observations from a re-analysis of the deposited data

How the results depend on the processing

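*Cacna2d2*, *Kcnq3* and *Gja4* kept direction and call under all 13 alternatives, and *Scn7a* and *Kcnmb1* under the 9 and 10 in which they were tested. The count of members higher ventrally, 6, was 5 to 9 under the other alternatives and 4 to 24 when 1 array was left out. The count higher dorsally, 4, was 2 with the mean of all probe sets, 2 at a threshold of 0.01, 2 with every probe set tested on its own and 1 to 10 when 1 array was left out. The count of cardiac channel genes higher ventrally, 0, was 1 without a filter (*Kcnj5*), and 1 (*Cacna1d*) with the mean of all probe sets, at a threshold of 0.1, with the replicate block and with every probe set on its own. It was 0 to 2 when 1 array was left out, with 2 (*Cacna1d* and *Kcnj3*) without ventral replicate 1. Heart muscle genes higher ventrally numbered 13 to 16. The difference of *Kcnq5* was -0.50 to 0.53 when 1 array was left out, and 0.53 came from another probe set, which then had the highest mean. With the replicate block, 9 members were higher ventrally and 5 dorsally (12.5% and 6.94%, against 5.16% and 6.01% of all genes). The labels do not say that a number pairs samples. The deviations of the arrays numbered 1 correlated with r = 0.14 over 13139 genes, from 2 pairs. The means of the poly-A controls followed the number, at 7.58 and 7.82 for 1 and 9.76 and 9.66 for 2. The main test has no term for the number. Once 1 array is left out, its part has a lone sample, assumed to vary like the samples of the other part. Dim probe sets limit what can be said of the 59 members that were not tested.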
